A study of Homo sapiens with 14 samples.

Results

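The distal part of the long arm of human chromosome 13, from 72 Mb to the last annotated locus, was followed in RNA of HEK293T cells with and without SETD2. Members were all loci on chromosome 13 whose start in the authors' hg19 coordinates was 72000000 or more. They numbered 295 of the 801 loci of chromosome 13 and of 33618 loci on chromosomes 1 to 22 and X. A locus is the span of overlapping transcripts as the authors' files give it, so it can hold more than 1 gene. The first member started at 72012098 and the last ended at 115099423, no 2 neighbours overlapped, and together they held 1169 transcripts. The region was proposed because folds of knockout over wild type seen in these same files were high there. All folds and calls below come from that contrast and describe the region, and none of them was tested as a difference between the region and other loci.

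HEK293T is a cell line derived from human embryonic kidney and transformed further with the SV40 large T antigen. The series set wild type HEK293T cells beside HEK293T cells with a SETD2 knockout, and the 6 RNA libraries, depleted of ribosomal RNA, are labelled as 3 of each genotype. Neither group is labelled with a drug or other treatment, and the labels do not say how the knockout was made or whether it was 1 clone. For 1 of the wild type RNA libraries the label gives a chromatin protocol. The 8 ChIP samples were not used here. The files hold 1 value per transcript and group, in FPKM, the number of fragments scaled to transcript length and to the total of mapped fragments. There is no value per library, so neither the depth of a library nor the spread between libraries is known, and errors are the intervals that the authors deposited. The labels do not tell whether separate cultures were used, so p-values of the authors may reflect technical spread only.

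SETD2 is the enzyme that trimethylates histone H3 at lysine 36 (H3K36me3) along the bodies of genes while they are transcribed. Chromosome 13 is acrocentric: its short arm carries ribosomal RNA genes, and its protein-coding genes lie on the long arm, where gene-rich stretches alternate with long stretches poor in genes. HEK293T cells carry an abnormal set of chromosomes, which can differ between cultures. DNA of these cells was not analysed here, and in bulk RNA a higher level per cell and a larger share of cells with the RNA cannot be told apart. Transcripts come without gene names in the files and 0 identifiers matched the tables of gene names, so loci are named by position and the knockout itself was not checked at the RNA level.

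Most members were silent or nearly so. Of the 295 loci, 145 were listed at 0 in both groups, 25 at 0 in the knockout only and 5 at 0 in the wild type only. A further 30 were above 0 in both groups but under 1 FPKM in each. Counted by transcript, zeros were more frequent in the knockout than in the wild type in the region (607 against 510 of 1169). The same was seen on the rest of chromosome 13 (996 against 805 of 1844). The remaining 90 loci (30.5%) had at least 1 FPKM in a group and a value above 0 in both, against 167 of 506 (33.0%) on the rest of chromosome 13. These 90 loci held 798 transcripts, 21 of them consisted of a single transcript, and their lengths ran from 364 to 1180561 bases. The 44 loci of at most 300 bases did not reach the 90, and 2 loci of at least 1 FPKM were left out because they were listed at 0 in the knockout. One of these, 13:90882638-90883936, had a wild type value of 63.5 FPKM and an authors' interval of 0 to 179 FPKM (p = 0.0051, q = 0.698 in the authors' deposited table). The other, the 126-base locus at 13:95963084-95963209, had a wild type value of 5.05 FPKM (p = 0.0461, q = 0.991 in the authors' deposited table), and its wild type interval, 3.04 to 6.85 FPKM, was apart from the knockout value of 0.

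Expressed loci lay higher in the knockout along most of the region. Of the 90 loci, 74 (82.2%) were higher in the knockout and 16 were lower, against a background of 56.1% higher over all loci. On the rest of chromosome 13, 105 of 167 loci (62.9%) were higher. The median fold of the 90 loci was 1.26 (median log2 fold 0.33, quartiles 0.08 and 0.60). On the rest of chromosome 13 the median log2 fold over 167 loci was 0.12 (quartiles -0.16 and 0.38), and over all 12424 loci it was 0.06. Relative to all loci the region therefore lay at 0.27 on the log2 scale and the rest of chromosome 13 at 0.06. The median of all loci was exceeded by 69 of the 90 loci (76.7%), against a background of 50% by definition and 95 of 167 (56.9%) on the rest of the chromosome. A locus sum at least 1.5-fold higher was seen at 23 of the 90 loci (25.6%, background 13.1%) and one at least 1.5-fold lower at 3 (3.33%, background 11.1%). Another 31 of the 90 loci lay within 1.2-fold, against 80 of 167 on the rest of chromosome 13 and 5636 of 12424 over all loci. The last stretch of the long arm of chromosome 3, where folds of these libraries were also high, had a median log2 fold of 0.27 over 85 loci, of which 63.5% exceeded the median of all loci. No test of these differences was made, because loci are not replicates and the region was chosen on its folds.

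**Figure D1:**
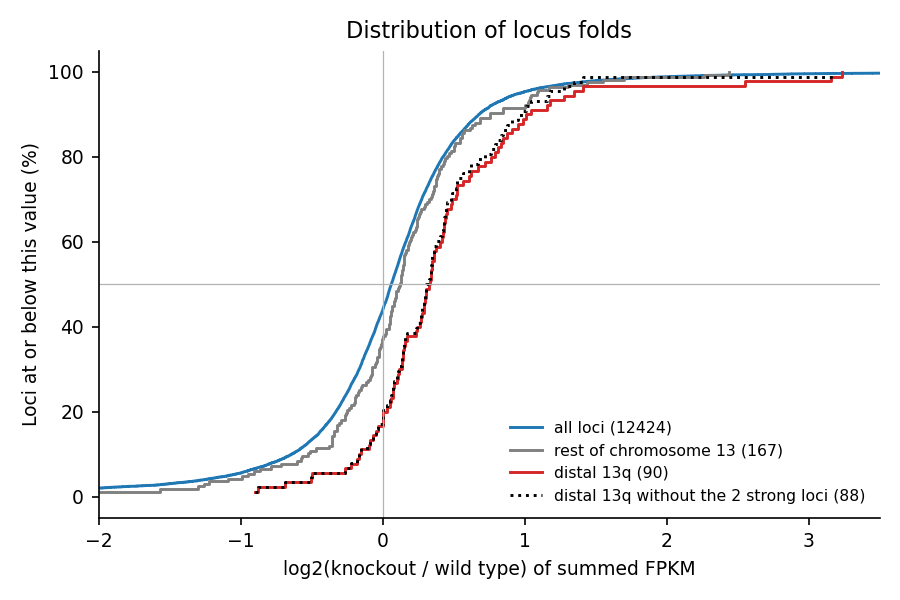
Cumulative share of loci (y axis, percent) at or below each log2 fold of knockout over wild type (x axis) for all 12424 loci, the rest of chromosome 13 (167 loci), distal 13q (90 loci) and distal 13q without the 2 strong loci (88 loci). The curve of distal 13q lies to the right over most of its range, crosses 50% near 0.33, and hardly moves when the 2 strong loci are left out.

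The 2 loci that the rule sets aside had the highest and the third highest folds of the 90, and they contributed little to the regional values. At 13:107142079-107187462, a locus with a single transcript, the authors' deposited table gave 6.95 FPKM in the wild type and 40.7 FPKM in the knockout. At 13:110406184-110438915 the sum of its 2 transcripts was 3.26 FPKM in the wild type and 30.7 FPKM in the knockout, a 9.43-fold difference. Without both, the median log2 fold of the remaining 88 loci was 0.32, 67 of them (76.1%) exceeded the median of all loci, and the difference from the rest of chromosome 13 went from 0.21 to 0.20. Without all 5 of the 90 loci that held a called transcript, the median was 0.30 over 85 loci, with 75.3% above the median of all loci. With any single locus left out the median stayed at 0.33. Leaving out so few of 90 loci can hardly move a median or a share, so these values do not show how widely the higher values were spread. The counts per locus describe it: 74 of the 90 loci were higher in the table of tests, with a few strong loci on top. That share, 82.2%, stood beside 56.1% over all loci, and fewer of the 90 were higher with tracking values.

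**Figure D2:**
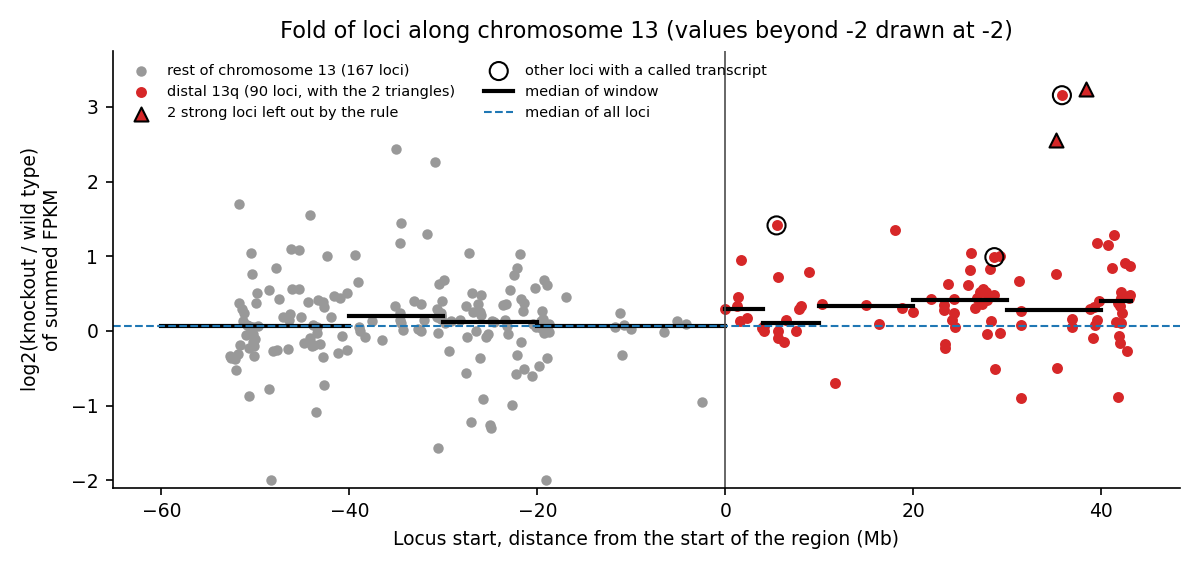
Log2 fold of summed FPKM, knockout over wild type (y axis), of each locus against the distance of its start from the start of the region in Mb (x axis), with red points for distal 13q, grey points for the rest of chromosome 13, triangles for the 2 strong loci, circles for other loci with a called transcript, black lines for window medians and a dashed line for the median of all loci (0.06). Of the red points, 69 of 90 lie above the dashed line, while the window from 4 to 10 Mb into the region has a median of 0.11 only.

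Summed FPKM gave a similar picture with other weights. Over all 295 loci the wild type sum was 3501 FPKM and the knockout sum 4531 FPKM, a ratio of 1.29, against 1.10 over the 506 loci of the rest of the chromosome. Over loci that passed the filter the ratio was 1.32 in the region and 0.981 over all 12424 loci, and with tracking values it was 1.28 and 1.07, so the gap between them was smaller in that table. Without the 2 strong loci the ratio over the region was 1.28. A single locus, 13:82264046-82265207, a short locus of 2 transcripts, held 33.9% of the wild type sum of the 90 loci. It stood at 1162 FPKM in the wild type and 1489 FPKM in the knockout, a 1.28-fold difference beside the median of 1.26 over the 90 loci, and without it the ratio over the other 294 loci was 1.30. The 74 higher loci gained 1166 FPKM together and the 16 lower ones lost 69.1 FPKM together. Of the gain, 28.1% came from 13:82264046-82265207, 47.7% from the 3 loci with the largest gain, 72.9% from the 10 with the largest gain and 27.1% from the other 64. The 2 strong loci made up 5.25% of it.

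**Figure D3:**
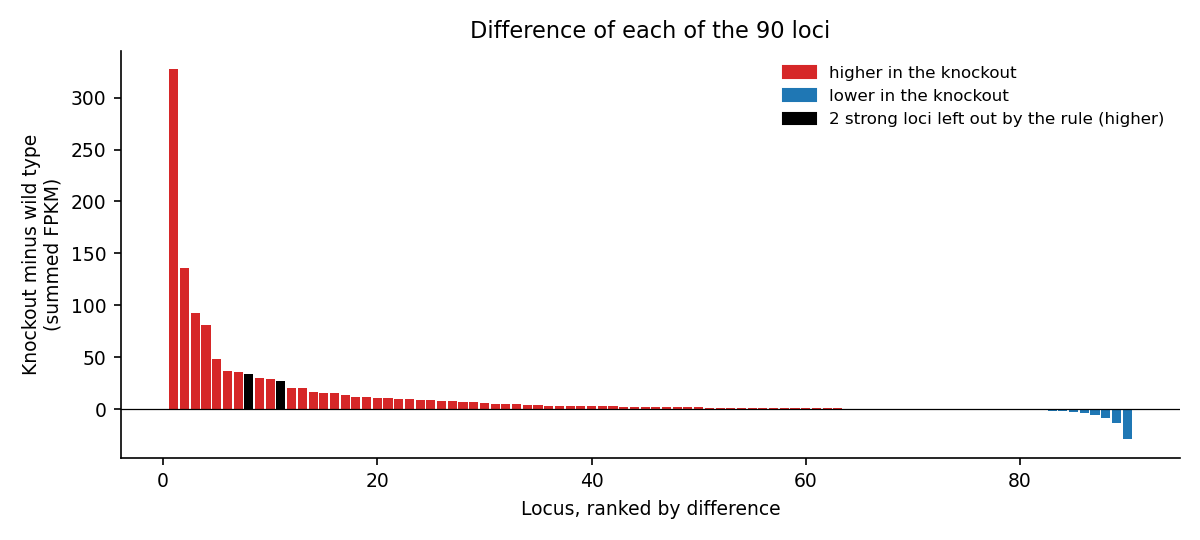
Difference of summed FPKM, knockout minus wild type (y axis), of the 90 loci of distal 13q, ranked from the largest gain to the largest loss (x axis, rank), with red bars for higher, blue for lower and black for the 2 strong loci. The leading bar is the locus at 82264046, and the 2 black bars rank below several loci of smaller fold, because their levels are low.

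Higher values were not even along the region. Just outside it, the 3 nearest loci of at least 1 FPKM were at 66876967, with 4.75 FPKM in the wild type and 5.23 FPKM in the knockout, at 67840977, with 17.0 and 18.1 FPKM, and at 69559190, with 1.63 and 0.847 FPKM. Just inside, 13:72012098-72441330 stood at 2.77 FPKM in the wild type and 3.41 FPKM in the knockout. The next loci were 13:73282495-73301825, with 12.7 and 16.1 FPKM, and 13:73302061-73590591, with 42.1 and 57.7 FPKM. The threshold therefore falls in a stretch with few expressed loci, and only 22 loci passed between 52 and 72 Mb. Inside the region the median log2 fold was 0.30 over the 7 loci from 72 to 76 Mb and 0.11 over the 12 loci from 76 to 82 Mb. It was 0.33 over 6 loci from 82 to 92 Mb, 0.42 over 29 loci from 92 to 102 Mb, 0.28 over 18 loci from 102 to 112 Mb and 0.40 over the 18 loci beyond 112 Mb. On the rest of the chromosome the window medians lay between 0.06 and 0.20. The order of the windows depended on the table. With tracking values the medians, in the same order along the region, were 0.20, 0.11, 0.12, 0.25, 0.37 and 0.35, and those outside it lay between 0.06 and 0.14, so the windows from 76 to 92 Mb did not exceed all of those outside.

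The window from 76 to 82 Mb shows how a sum and a median can part. Its summed ratio, 1.43, was the highest of the windows, and it came from 1 locus: without 13:77454312-77460540 the other 11 loci had sums of 301 FPKM in the wild type and 331 FPKM in the knockout, a ratio of 1.10. Likewise, the ratio of 1.28 from 82 to 92 Mb became 1.04 without the locus at 82264046. From 92 Mb onward the ratios were 1.30, 1.37 and 1.33, and without the locus with the largest gain in each window they were 1.21, 1.27 and 1.26. The longest stretch without a locus that passed lay between 103528345 and 107142079, or 3.61 Mb.

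Higher values were seen at all levels of expression. In 4 bins by the mean FPKM of both groups (under 5, 5 to 20, 20 to 50, and 50 or more), the median log2 fold of the region was 0.30, 0.33, 0.34 and 0.35, over 21, 35, 20 and 14 loci. The corresponding medians on the rest of chromosome 13 were 0.10, 0.15, 0.14 and 0.09, and over all loci 0.08, 0.12, 0.07 and 0.00. Across the 90 loci, which share their libraries and are not independent, Spearman's correlation of the log2 fold was -0.025 with length and -0.050 with the number of transcripts. The median was 0.28 over the 21 loci with a single transcript, 0.36 over 39 loci with 2 to 9 and 0.29 over 30 loci with 10 or more. The 90 loci were of a median length of 36533 bases and a median wild type level of 12.7 FPKM, against 48201 bases and 9.55 FPKM on the rest of the chromosome.

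The authors' test called 7 transcripts of the region at a q-value under 0.05, and 6 of these rose. Of 477 tested transcripts, 1.26% rose (background 0.0629%) and 1 fell (0.21%, background 0.191%), while 0 of 662 were called on the rest of chromosome 13, where 8 higher and 6 lower transcripts had an unadjusted p under 0.05. At that unadjusted level 15 transcripts of the region were higher (3.14%, background 0.816%) and 3 lower (0.629%, background 1.56%). Of all tested transcripts of the region 324 (67.9%, background 52.2%) had a higher value in the knockout. Tracking-table intervals of the groups were apart for 4 tested transcripts on the higher side (0.839%, background 0.214%) and 2 on the lower side (0.419%, background 0.413%). All of these counts come from the contrast that led to the choice of the region, and nothing is read from them.

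The 3 largest folds among called transcripts above 0 in both groups lay close together, at starts from 107142079 to 110406184. ENST00000375856 at 13:110406184-110438915 rose from 1.73 to 21.9 FPKM (12.7-fold, p = 5e-05, q = 0.0220 in the authors' deposited table). Its tracking-table intervals ran from 0.979 to 2.40 FPKM for the wild type and from 13.2 to 25.8 FPKM for the knockout and were apart. The second transcript of that locus was not called and stood at 1.53 FPKM in the wild type and 8.80 FPKM in the knockout, so the called transcript's share of the locus was 53.1% in the wild type and 71.3% in the knockout. ENST00000245323 at 13:107142079-107187462 rose 5.85-fold (q = 0.0220 in the authors' deposited table), and its intervals, 4.32 to 9.26 FPKM and 25.9 to 49.9 FPKM, were apart. Between these, a transcript of the long locus 13:107820883-108519083 rose from 0.280 to 2.44 FPKM (8.71-fold, q = 0.0220 in the authors' deposited table), and its intervals, 0.0630 to 0.483 and 1.10 to 2.95 FPKM, were apart too. The other 4 transcripts of that locus had sums of 0.0123 FPKM in the wild type and 0.166 FPKM in the knockout.

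Neighbours of the strong loci differed in fold. The locus beside the first, 13:107194021-107220512, is among the 6 highest of the region and stood at 116.3 FPKM in the wild type and 197 FPKM in the knockout, a 1.69-fold difference without a call. The next locus, 13:107306264-107324511, went the other way, with 45.5 FPKM in the wild type and 32.3 FPKM in the knockout. On the far side of the second strong locus, the nearest locus that passed was 13:110801318-111165374, with 45.1 FPKM in the wild type and 55.1 FPKM in the knockout (1.22-fold). The one after it, 13:111175417-111214080, stood at 5.10 FPKM in the wild type and 4.77 FPKM in the knockout. The folds of these 4 neighbours, all on the far side of a strong locus, ran from under 1 to 1.69. On the near side of the first, the nearest locus that passed, 13:103451399-103528345, was 1.87-fold lower in the knockout. On the near side of the second it was 13:108870727-108886603, with a fold of 1.04.

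**Figure D4:**
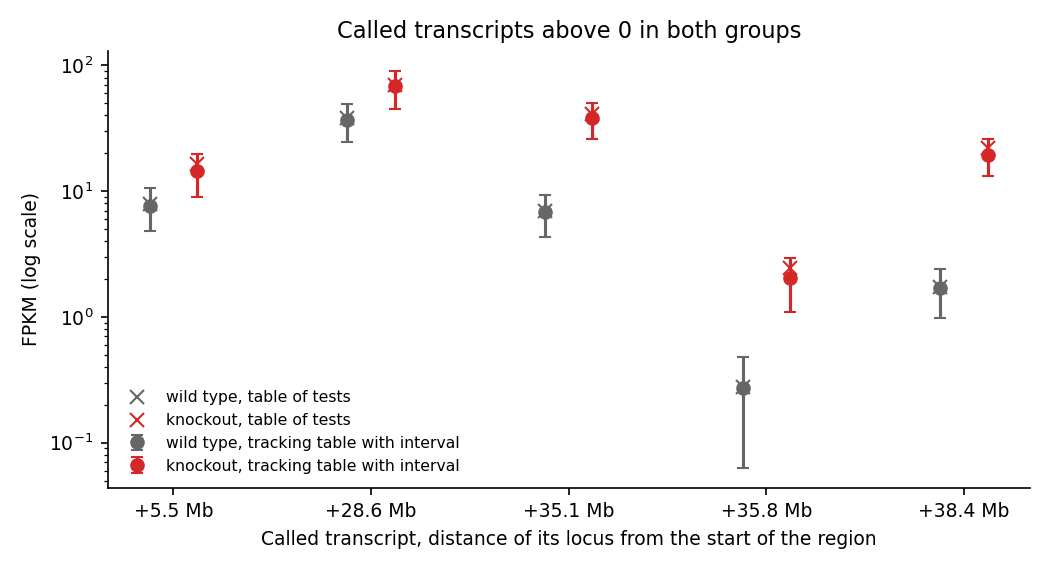
FPKM (y axis, log scale) of the 5 called transcripts above 0 in both groups, placed by the distance of their locus from the start of the region (x axis, Mb), with grey for wild type and red for knockout, dots and bars for the tracking-table value with the authors' interval, and crosses for the value in the table of tests. The bars of the groups are apart for the 3 transcripts at the right and overlap for the 2 at the left.

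The other calls were smaller or rested on low values. At 13:100634026-100639018 a transcript rose from 37.9 to 69.9 FPKM (1.84-fold, q = 0.0220 in the authors' deposited table), and its intervals, 24.4 to 49.5 and 45.1 to 90.9 FPKM, overlapped. Of the other 4 transcripts of that locus 3 were higher and 1 was lower, and these 4 had sums of 56.3 FPKM in the wild type and 117 FPKM in the knockout. At 13:77454312-77460540 a transcript rose from 7.85 to 16.5 FPKM (2.10-fold, q = 0.0220 in the authors' deposited table), again with intervals that overlapped. The called transcript held only 7.56% of that locus in the knockout. The transcript that held 90.6% stood at 73.5 FPKM in the wild type and 198 FPKM in the knockout with p = 0.651 in the authors' deposited table, although its tracking-table intervals, 51.7 to 91.5 and 95.7 to 162 FPKM, were apart. At 13:107028911-107030565 a transcript listed at 0 in the wild type was called at 0.591 FPKM in the knockout, with a knockout interval that reached down to 0. The single called fall, ENST00000602560 at 13:103331776-103332308, was listed at 0 in the knockout and at 0.383 FPKM in the wild type (q = 0.0392 in the authors' deposited table), with a wild type interval of 0 to 0.907 FPKM.

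Several well expressed loci had a higher sum without any called transcript. The widest such difference among loci of at least 5 FPKM was at 13:113344643-113541482, with 25.6 FPKM in the wild type and 62.03 FPKM in the knockout (2.43-fold) over 19 transcripts. Most of it came from 1 transcript, at 14.1 FPKM in the wild type and 39.0 FPKM in the knockout, whose tracking-table intervals reached down to 0 in both groups. The other 18 were also higher together, summing to 11.5 and 23.001 FPKM. At 13:111530887-111567416 the sum was 38.5 FPKM in the wild type and 86.9 FPKM in the knockout (2.26-fold). Here too 1 transcript, at 6.06 and 43.1 FPKM, made most of the difference, the other 12 summing to 32.4 and 43.8 FPKM. At 13:101256181-101327347 the sum was 13.5 FPKM in the wild type and 27.1 FPKM in the knockout. The remaining loci among the 12 largest positive differences on the log2(FPKM + 1) scale lay at 73629114, 100153671, 113139325, 114518603 and 115047059, with folds of 1.78 to 1.94 and, in the knockout, sums of 7.92 to 81.7 FPKM. Of these 12 loci, 4 held a called transcript.

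Among the highest loci, folds ran from 0.969 to 1.69. Of the 6 with the highest wild type sum, 13:99853028-100038688 had no higher value in the knockout, with 267 FPKM in the wild type and 259 FPKM in the knockout. The others were the locus at 82264046, that at 107194021, 13:98605912-98676551 with 125 FPKM in the wild type and 154 FPKM in the knockout, 13:113951556-113977987 with 112 and 142 FPKM, and 13:114239013-114295785 with 110 and 130 FPKM to the nearest whole value. The knockout value was higher at 5 of the 6.

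Lower loci were few, and their sums often turned on 1 transcript. The lowest fold of the 90 was at 13:103451399-103528345, where the sum was 62.9 FPKM in the wild type and 33.7 FPKM in the knockout (1.87-fold lower). One transcript there, listed at 0 in the knockout and at 36.03 FPKM in the wild type (p = 0.142 in the authors' deposited table, wild type interval 28.9 to 41.2 FPKM, apart from 0), set the direction: the other 15 summed to 26.8 FPKM in the wild type and 33.7 FPKM in the knockout. At 13:113812968-113826694 the sum was 6.80 FPKM in the wild type and 3.696 FPKM in the knockout, and without 1 transcript the other 3 summed to 0.833 and 1.54 FPKM. At 13:100741269-101182686 the sum was 12.7 FPKM in the wild type and 8.98 FPKM in the knockout, and without 1 transcript the other 13 summed to 9.34 and 8.98 FPKM. The remaining loci among the 8 largest negative differences on the log2(FPKM + 1) scale were those at 107306264 and 111175417, given above, and those at 77559003, 78272023 and 113978505, which were 1.06-fold to 1.12-fold lower. Of the 16 lower loci 10 held several transcripts, and 8 of these 10 were higher without the transcript with the largest difference. Leaving out that transcript pulls a locus toward the other side by construction: of the 59 higher loci with several transcripts, 16 became lower and 43 remained higher. What remained could also be close to 0, as at 107306264, with 0.0729 FPKM in the wild type and 0.390 FPKM in the knockout. The other 6 lower loci held a single transcript. One of them, 13:83719675-83720038, was 1.61-fold lower, with 4.85 FPKM in the wild type and 3.01 FPKM in the knockout.

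Transcripts of a locus share reads and were compared for direction within it. Of 66 loci with at least 2 tested transcripts, 16 had all of them higher in the knockout and 0 had all of them lower. Higher tested transcripts outnumbered lower ones at 48 of the 66 and were outnumbered at 4, and the other 14 were even. The same counts were not made over other loci, so they cannot be read as particular to the region. Higher values prevailed elsewhere too: 52.2% of all tested transcripts and 58.3% of those on the rest of chromosome 13 were higher, against 67.9% in the region.

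Knockout values of the region were lower in the tracking table, at a median of 0.919 times the sum in the table of tests. In the wild type the ratio of tracking to test-table sum was between 0.974 and 0.978 at all 90 loci, while for the knockout it ran from 0.669 to 1.28. The libraries behind each column were not given in the sources used here. With the tracking values the median log2 fold of the region was 0.24 over 90 loci, against 0.09 over 165 loci on the rest of chromosome 13 and 0.08 over all 12379 loci. The region then lay at 0.16 relative to all loci, in place of 0.27, and 63 of the 90 loci (70.0%) exceeded the median of all loci. The fold was smaller in the tracking table at 66 of the 90 loci, and 82 of the 90 lay on the same side of 1 in both tables. Most of the 8 that changed side were higher in the table of tests and lower in the tracking table. At the 2 strong loci the folds hardly moved, with 5.58-fold in place of 5.85-fold and 8.89-fold in place of 9.43-fold. At 13:77454312-77460540 the fold went from 2.66 to 1.83, and at 13:111530887-111567416 from 2.26 to 1.69. Named lower loci moved in both directions. The fold went from 0.899 to 0.646 at 13:78272023-78338377 and from 0.543 to 0.376 at 13:113812968-113826694, but from 0.710 to 0.794 at 13:107306264-107324511.

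**Figure D5:**
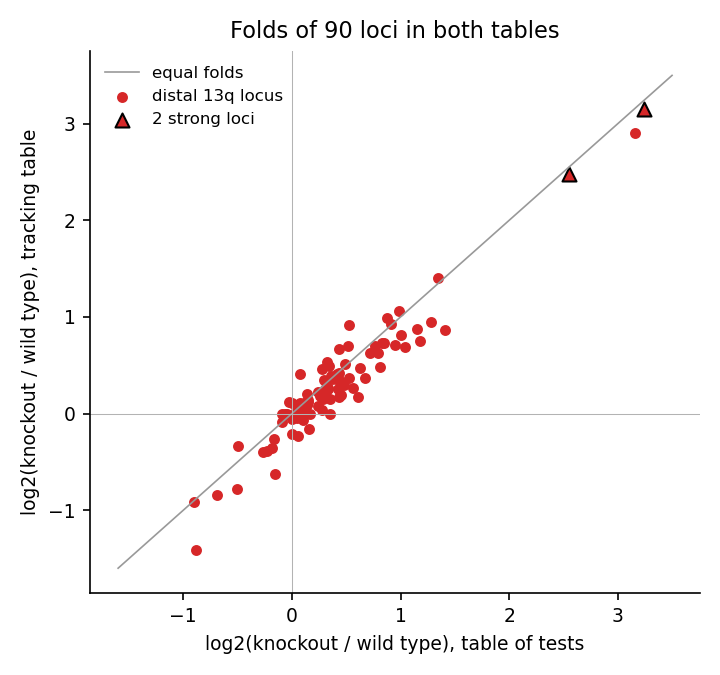
Log2 fold of knockout over wild type of the 90 loci in the table of tests (x axis) and in the tracking table (y axis), with the line of equal folds and triangles for the 2 strong loci. Of the points, 66 lie under the line and 82 have the same sign in both tables, and the strong loci stay close to the line.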

How the data were processed

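RNA libraries of wild type and SETD2 knockout HEK293T cells were compared through the group values that the authors deposited. TopHat, Cuffdiff, Bowtie 1.1.2 and hg19 appear in the submitters' processing notes with no role, and the annotation was not given in the sources used here. Per transcript and group, the authors deposited FPKM in 2 tables, a tracking table with lower and upper bounds (their level is not given) and a table of tests. Per the file headers, the table of tests also holds the p-value, the q-value, a statistic (a score of no set range) and a log2 fold that divides wild type by knockout. That fold was reversed to knockout over wild type. The tables named for genes and for transcripts were identical.

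FPKM from the table of tests were summed per locus on chromosomes 1 to 22 and X, after 6 loci of the series with a failed estimate were left out (0 on chromosome 13). Folds are plain ratios, taken where 1 group or both reached 1 FPKM and neither was 0, so a locus at 0 in a group has none. Starts have 1 added to the value in the files. The region, its members and the lists were chosen with earlier results of these data known. Named are called transcripts (q under 0.05), the 12 largest positive and 8 largest negative differences on the log2(FPKM + 1) scale among loci of at least 5 FPKM, the 6 highest loci of at least 300 bases, the 2 strong loci, and the 3 loci nearest to 72 Mb on each side. Other items were chosen after their values were seen. Gene lists by symbol could not be used. Python 3.11.15, pandas 2.3.3, numpy 2.4.6, scipy 1.17.1 and matplotlib 3.10.9 were used.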

Additional observations from a re-analysis of the deposited data

Results flagged for a closer look

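A signal outside the main values was seen in the tracking table: of the 1169 transcripts of distal 13q, 32 had a knockout value of 0 in the table of tests and a value above 0 in the tracking table. For the wild type this held for 1. Of the 32, 6 reached at least 1 FPKM, and the highest stood at 1.82 FPKM. The share, 2.74%, was close to the 2.71% of the rest of chromosome 13, and the difference was not tested.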

How the results depend on the processing

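Of 31 alternatives to the 5 regional results, 24 left the value within the 95% binomial interval of the median or share, within 1.5 times for a count, or within rounding for a summed ratio. That interval counts loci as independent, which they are not, so it serves as a yardstick for the size of a move and shows no stability. The median log2 fold, 0.33, was 0.24 in the tracking table and 0.51 with 1 value per transcript, where the same values over all transcripts had a median of 0.11. The summed ratio, 1.29, was 1.28 without the 2 strong loci, 1.26 in the tracking table, and, in alternatives chosen after seeing the data, 1.30 without the locus of the highest level and 1.32 over the 90 loci. Another alternative chosen after seeing the data, counted among the 24, left out the transcript with the largest difference at loci with several transcripts. The median log2 fold was then 0.27 over 64 loci, against 0.34 over 69 with all transcripts. Over all loci the same step took the median from 0.06 to 0.03. Of the 7 calls, 3 also had tracking-table intervals that were apart. All 30 named loci of the region with folds in both tables stayed within 1.5-fold between them. Starts at 62 or 82 Mb gave medians of 0.30 and 0.35. No paired analysis was possible because the files hold group values only, and for the same reason no library could be left out. Depth is unknown, so low values carry an error that only the authors' intervals describe.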
